A study of Homo sapiens with 2 samples.

Results

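The zinc finger genes described here are those with symbols from ZNF2 to ZNF299, with or without a final letter A to D, leaving out antisense, pseudogene and hyphenated symbols. The rule uses the name alone and no measured value, and it takes 149 of the 23686 gene symbols in the tables. The measurements are poly(A) RNA-seq of A427, an established human non-small cell lung carcinoma line, in 2 libraries: 1 of adherent cells and 1 of floating, sphere-forming cells. Both growth forms were cultured with 5% fetal bovine serum in RPMI 1640, both carry the genotype label WT, and the series title calls the line CTNNB1-mutated. No drug, vector or other agent is named for either group, and whether the line is 1 clone is not given in the labels. With 1 library per growth form there is no replicate, so nothing was tested and p-values are not given. Every interval below is a 95% interval that covers counting error only, and what separate cultures would add to it is not known.

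Most genes of this name encode C2H2 proteins, in which pairs of cysteines and histidines hold a zinc ion and fold a short loop that reads a few bases of DNA. Fingers are strung together by a conserved linker, and many of the genes also encode a KRAB box, a short domain that recruits the co-repressor TRIM28, which in turn brings the histone methyltransferase SETDB1 and HP1 proteins to silence the bound DNA. KRAB genes are known as repressors of transposable elements, and many stand side by side in clusters on chromosome 19 that arose by repeated duplication. A smaller number carry a SCAN domain, through which the proteins pair with each other, and some ZNF symbols belong to proteins of other kinds. The symbol therefore groups genes by a structural motif and not by a common task.

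To show what the members share, a script translated the coding sequences of GENCODE release 29 (GRCh38) and searched for the spacing of C2H2 residues. Of 148 members with a coding sequence there, 146 held at least 1 finger, the median was 11 fingers and the highest number was 36, in ZNF208. ZNF185 and ZNF259 held none, and ZNF271 had no coding sequence to search. The coding sequence of 1 finger with the start of its linker is printed for 4 members, with the codons of the zinc-binding cysteines and histidines in capitals. ZNF165 and ZNF41 are shown because they stood near opposite ends of the range of differences, and ZNF222 and ZNF223 because they are near copies of which 1 had reads and the other had none.
ZNF165: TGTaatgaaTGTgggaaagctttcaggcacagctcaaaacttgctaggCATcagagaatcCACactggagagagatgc
ZNF41: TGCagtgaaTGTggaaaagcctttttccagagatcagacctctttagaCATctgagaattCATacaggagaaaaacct
ZNF222: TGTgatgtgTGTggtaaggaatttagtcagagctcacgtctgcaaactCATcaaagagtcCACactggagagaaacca
ZNF223: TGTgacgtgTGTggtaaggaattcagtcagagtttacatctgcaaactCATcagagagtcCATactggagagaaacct
They are finger 1 of 5 in ZNF165, finger 3 of 17 in ZNF41, and finger 2 of 8 in both ZNF222 and ZNF223. The capitals fall at the same places in all 4, while the letters between them differ. The stretch differed at 25 of 78 bases between ZNF165 and ZNF41, and at 8 of 78 between ZNF222 and ZNF223. Over the whole coding sequence, ZNF222 and ZNF223 were 87.6% identical across 1446 aligned bases. Copies this close bear on the counts, since a read that fits more than 1 gene has to be divided between them by estimation.

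The libraries held 26384670 (adherent) and 27148842 (floating) gene-assigned reads. Of all symbols, 13131 reached 1 CPM (reads per 1000000 of the scaled library, about 26 reads in the adherent and 27 in the floating library) in at least one of them and were compared. The label of an epithelial lung tumour line was set against marker genes. Epithelial markers summed to 1304 TPM (transcripts per 1000000, a level per length) in the adherent and 1791 TPM in the floating library. The intermediate filament genes KRT8 and KRT18 were higher in the floating library (327 and 581 TPM, 342 and 613 TPM), whereas the adhesion genes EPCAM (615 and 582 TPM) and CDH1 (18.9 and 13.9 TPM) were lower and KRT19 was at 0.5 and 1.3 TPM. Lung lineage markers summed to only 2.90 and 2.79 TPM. Endothelial markers summed to 0.13 and 0.42 TPM with CDH5 at 0 reads in both, fibroblast markers to 14.6 and 8.59 TPM, and leukocyte markers to 19.8 and 33.5 TPM with CD3E at 0 reads in both. Nearly all of the fibroblast sum was COL1A1 (13.9 and 7.98 TPM) and most of the leukocyte sum CD68 (16.9 and 31.5 TPM), while PTPRC went the other way (2.84 and 1.95 TPM). The part of these markers in the results below was not tested.

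Of the 149 members, 128 passed the minimum of 1 CPM and were compared, and 21 did not. As a group they were of modest level. The median over the compared members was 10.2 TPM in both libraries, against 22.4 (adherent) and 21.7 TPM (floating) for all compared genes, and the median number of reads per library was 412.5 against 802.5. At least 10 TPM in both libraries was reached by 63 members and at least 50 TPM by 9. Another 58 compared members lay between 1 and 10 TPM in both. The 10 members of highest level held 39.8% of the members' summed TPM in the adherent and 39.5% in the floating library. The order of the levels was alike, with Spearman's rho of 0.97 between the libraries over the 128 compared members; the points share the line and the counting, and the value is a description.

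**Figure D1:**
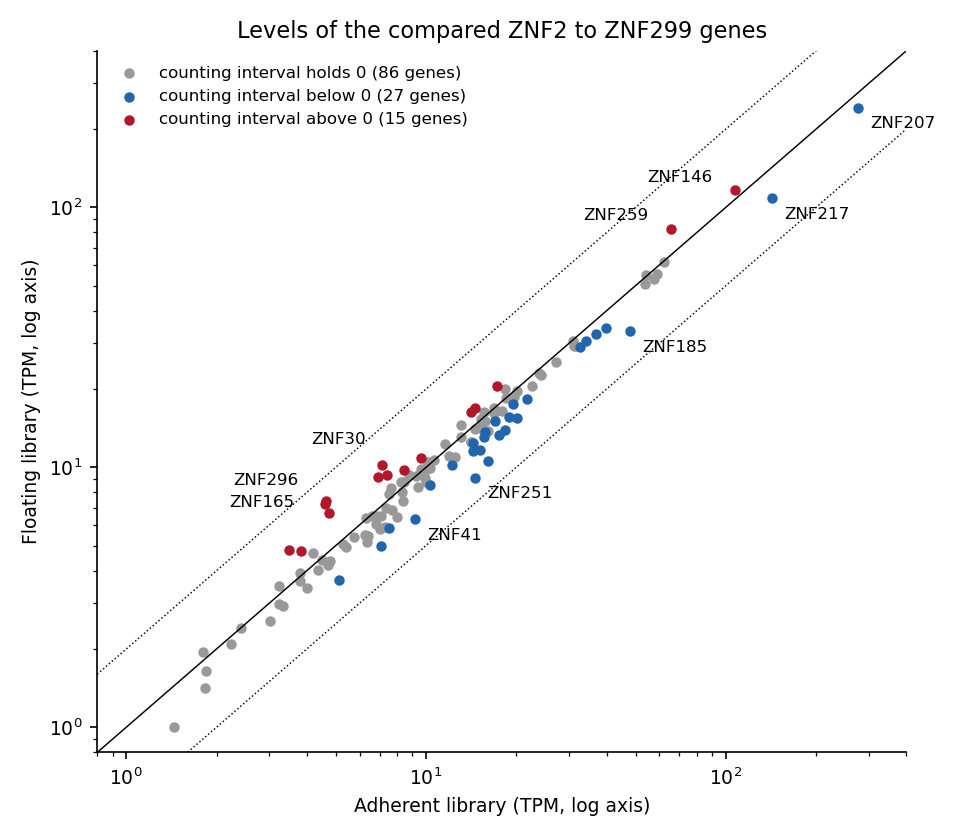
Level of each of the 128 compared members in the adherent (x) and floating (y) library, in TPM on log axes, 1 point per gene, with the solid line marking equal levels and the dotted lines 2-fold differences. All points lie between the dotted lines, with 27 genes whose counting interval is below 0, 15 above 0 and 86 that hold 0.

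The most abundant member was ZNF207, a microtubule-binding protein of the mitotic spindle that binds the checkpoint protein BUB3. It stood at 275 TPM in the adherent and 242 TPM in the floating library. ZNF217, an oncogene of the CoREST repressor complex known from amplifications in breast cancer, followed at 142 and 109 TPM, and ZNF146, a protein made up almost wholly of fingers, at 107 and 117 TPM. The leading 3 did not differ in one direction: the floating library was the lower one for ZNF207 and ZNF217 and the higher one for ZNF146. ZNF259, also called ZPR1, which binds receptor tyrosine kinases and a translation elongation factor and has no C2H2 finger, was at 65.6 and 82.6 TPM. Next came ZNF24 at 61.9 and 61.4 TPM, ZNF32 at 59.1 and 55.4 TPM, ZNF83 at 57.4 and 53.2 TPM, ZNF281 at 54.2 and 54.9 TPM and ZNF131 at 53.8 and 50.6 TPM. Those 5 differed little between the libraries, and neighbours in that order lie within a few TPM of each other. ZNF281 is a repressor known from pluripotent cells, ZNF24 a SCAN protein and ZNF131 a BTB protein. The tenth was ZNF185 at 47.9 and 33.5 TPM, a LIM-domain protein of the actin cytoskeleton that carries the name without the finger. Its level was clearly lower in the floating library.

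At the other end, 11 members had 0 reads in both libraries: ZNF69, ZNF80, ZNF85, ZNF99, ZNF132, ZNF135, ZNF154, ZNF208, ZNF223, ZNF257 and ZNF287. A count of 0 allows up to 3 reads, which is 0.114 CPM for the adherent library and 0.1102 CPM for the floating one. The other 10 that were not compared had at most 19 reads in a library. Among them ZNF157 had 19 reads in the adherent and 7 in the floating library, ZNF214 had 15 and 10, ZNF114 had 5 and 10, ZNF141 had 2 and 7, and ZNF93, which is known to silence LINE-1 elements, had 1 and 1. ZNF90 had 0 reads in the adherent and 1 in the floating library. A KRAB box was matched in 19 of the 21 members that were not compared and in 9 of the 11 with 0 reads, against 99 of 148 members searched. With no minimum of reads, 1 of these genes, ZNF157, would be called lower in floating cells; it was named after its values were seen.

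No member was called different between the growth forms. A gene was called when it differed 2-fold or more and its interval did not hold 0. By that rule 0 of 128 were higher and 0 lower in floating cells, where 1.28% of all compared genes were higher, 0.754% lower and 2.03% either. With 1.5-fold in place of 2-fold, 2 members were higher (3.24% of all compared genes) and 1 lower (2.9% of all, 6.15% in either direction). Within 1.5-fold lay 125 of the 128 (97.7%), against 93.3% of all compared genes, and within 1.2-fold lay 81.2% against 70.5%. Log2 ratios of floating over adherent on scaled counts, used from here on, ran from -0.62 to 0.73. Their middle 50% spanned 0.21, from -0.15 to 0.06, against 0.32 for all compared genes. The members were thus less spread than the genes at large, although their counting intervals were wider, with a median half-width of 0.20 against 0.14.

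**Figure D2:**
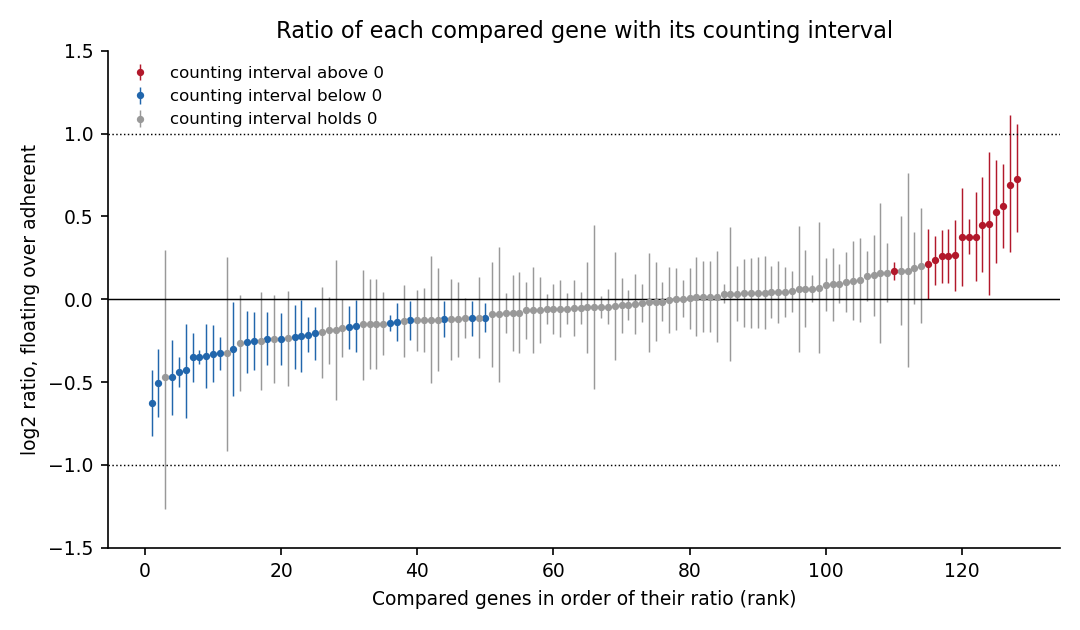
Log2 ratio of floating over adherent for the 128 compared members in rank order, with the 95% counting interval as a bar and dotted lines at 2-fold. The 27 genes in blue have intervals below 0 and the 15 in red above 0, and no point reaches a dotted line.

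The few members that stood apart were mostly of low to middle level. ZNF165, a SCAN protein that is also known as a cancer-testis antigen, had 126 reads in the adherent and 216 in the floating library. It had the highest ratio of all, a log2 ratio of 0.73 (interval 0.40 to 1.06), or 1.65-fold. ZNF296 had 80 and 134 reads (log2 ratio 0.69, 0.28 to 1.11). ZNF30, a KRAB gene, had 220 and 336 reads, 1.48-fold higher (1.24 to 1.76) in floating cells. At the lower end was ZNF251, another KRAB gene, with 511 and 343 reads, 1.54-fold lower (1.34 to 1.77). ZNF41, an X-linked KRAB gene, had 472 and 344 reads, 1.42-fold lower (1.23 to 1.64). ZNF10, or KOX1, whose KRAB box is the one most used to build synthetic repressors, had 375 and 280 reads, 1.38-fold lower (1.18 to 1.62). ZNF165, ZNF296 and ZNF251 are the 3 members outside 1.5-fold, and the first 2 were named after their values were seen. The middle of the range was crowded: 86 intervals held 0.

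Because the depth of a gene sets the width of its interval, small differences were resolved only in abundant members. The interval of ZNF217 was the narrowest, with a half-width of 0.043, and the widest had 0.78. ZNF217, with 9726 and 7913 reads, was 1.27-fold lower in the floating library (1.23 to 1.31). ZNF207 had 7121 and 6684 reads, with a log2 ratio of -0.14 (-0.19 to -0.09). These 2 genes weigh on the summed reads of all members: the log2 ratio of the sum was -0.07 with them and -0.04 without them. ZNF146, with 4878 and 5674 reads, had a log2 ratio of 0.17 (0.11 to 0.22), and ZNF259, with 1295 and 1740 reads, one of 0.38 (0.27 to 0.48). For ZNF185, with 2256 and 1722 reads, the ratio was -0.44 (-0.53 to -0.35). The ratios of ZNF24 (0.03, or -0.01 on the deposited TPM), ZNF32 (-0.06), ZNF83 (-0.06), ZNF281 (0.06) and ZNF131 (-0.05) all had intervals that held 0. Among members of at least 10 CPM in a library, 25 of 91 intervals lay below 0 (27.5%) and 8 above (8.79%). Among the 37 members under 10 CPM it was 2 below (5.41%) and 7 above (18.9%). Over all compared genes of any depth the shares were 25.6% below and 25.5% above, and shares of all genes split at 10 CPM were not taken. The median log2 ratio was -0.05 in both groups of members.

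Over all compared members, 27 intervals lay below 0 (21.1%) and 15 above (11.7%). Among all compared genes the shares were 25.6% below and 25.5% above. Members therefore had fewer intervals than genes at large on both sides, with the larger gap above 0. Their counts were also lower, with a median of 412.5 reads per library against 802.5. Ratios themselves were below 0 in 77 members and above in 51, and the median log2 ratio was -0.05, against -0.005 for all compared genes. Summed over the members, the level was 2326 TPM in the adherent and 2174 TPM in the floating library. ZNF207 (275 and 242 TPM) and ZNF217 (142 and 109 TPM) weigh on that sum. On the TPM all compared genes had a median log2 ratio of -0.05. Members are not replicates of a growth form, so these counts and medians describe the 2 libraries.

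Whether this small shift is more than that of similar genes was asked by setting each member against non-members of like expression and length. Genes were placed in 10 bins of mean CPM, each split in 5 bins of relative transcript length (summed reads per summed TPM), and the median ratio of the 250 to 262 non-members in the bin was subtracted from the member's ratio. Members are low and seldom short: 100 of the 128 fell in the lower 5 expression bins, and 3 in the shortest length bin. The middle length bin held 45 and the longest 27. The median of the bin medians was -0.04, and the median difference between a member and its bin was -0.01, with 67 members below their bin and 61 above. Non-members in the same bins had ratios below 0 in 55.9%, against 60.2% of members, intervals below 0 in 25.6% and intervals above 0 in 17.4%. The size of the median difference rests on the binning. With 20 bins of expression and none of length it was -0.05, with 10 bins of length and none of expression -0.03, and with 5 bins of expression each split in 10 of length -0.002. The mean of the differences was 0.007, on the other side of 0. The share within 1.5-fold was 94.1% in those non-members and 97.7% in members. A 2-fold call was made in 1.47% of those non-members, below the 2.03% of all compared genes, and in 0 of the 128 members.

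The ratios of non-members also varied with length. From the shortest to the longest length bin, their median log2 ratio was 0.09, 0.02, -0.02, -0.04 and -0.06. The trend is one of medians and intervals: intervals above 0 were found in 39.2% of genes in the shortest and 19.1% in the longest bin. Calls of 2-fold were more frequent in the longest bin in both directions, with 27 and 52 genes of these bins higher and 14 and 35 lower. In members the medians were -0.06 (3 genes), 0.02 (18 genes), -0.06 (45 genes), -0.06 (35 genes) and -0.05 (27 genes). In the middle bin, which holds the most members, the median of members was the lower one, and their median difference from like genes was -0.06. With the trend over length removed, the members' median was -0.02.

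**Figure D3:**
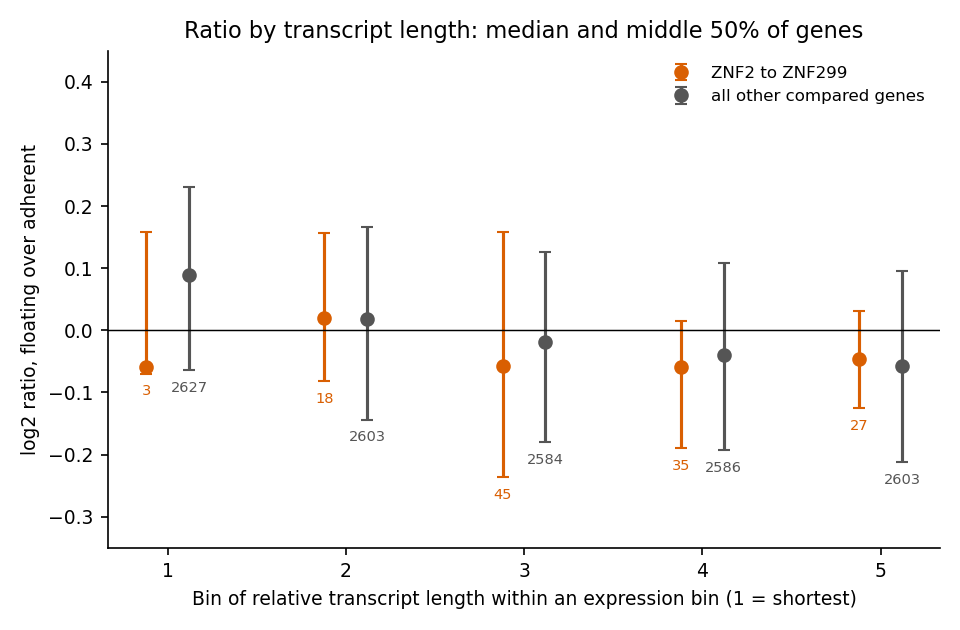
Median log2 ratio of floating over adherent (points) and middle 50% of genes (bars) by bin of relative transcript length (1 is the shortest, 5 the longest), for members (orange) and all other compared genes (grey), with the number of genes under each bar. Non-members go from 0.09 in the shortest bin to -0.06 in the longest, and members are at -0.06 both in the shortest bin (3 members) and in the middle one (45 members), where non-members are at 0.09 and -0.02.

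A KRAB box was matched in 99 members, of which 80 were compared. Their median log2 ratio was -0.04, with 15 intervals below 0 and 9 above. In the 47 compared members with a coding sequence and no KRAB match the median was -0.05, with 12 below and 6 above. Against like genes the median differences were 0.00 (KRAB), -0.05 (no KRAB match) and 0.09 (SCAN, 9 of 13 above their bin). The 13 compared SCAN members had a median of 0.01, with 1 interval below 0, that of ZNF263 (log2 ratio -0.13, -0.24 to -0.01), and 3 above. The 3 were ZNF165, ZNF197 (678 and 826 reads, 0.24) and ZNF274. Of the SCAN members, 6 also held a KRAB match. The patterns are short and miss divergent domains, so a gene without a match is not shown to lack the domain.

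By number of fingers the median ratios ran from -0.004 to -0.07. Members with 1 to 4 fingers had a median of -0.004 (9 genes), those with 5 to 9 of -0.04 (38 genes), those with 10 to 14 of -0.07 (47 genes) and those with 15 or more of -0.07 (31 genes). Against like genes, in the same order, the median differences were 0.03, 0.001, -0.03 and 0.003. The members of most fingers were ZNF208 (36, no reads), ZNF91 and ZNF142 (31 each) and ZNF236 (30). ZNF91, which silences SVA elements in primates, was at 10.62 TPM in both libraries, with 693 and 740 reads. ZNF142 had 1138 and 1166 reads with a ratio of -0.01, and ZNF236 had 1558 and 1390 reads with a ratio of -0.21 (-0.32 to -0.11). Long finger arrays were thus found both in a member with no reads and in members of middle level. ZNF142, ZNF208, ZNF236 and ZNF197 were named for their features after values were seen.

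Members with a known regulatory task lay on both sides of 0. ZNF274, a KRAB and SCAN protein that brings SETDB1 to the last exons of other zinc finger genes, had 571 reads in the adherent and 707 in the floating library, with a log2 ratio of 0.26 (0.10 to 0.42). ZNF195, a KRAB gene at the higher end among members of at least 10 CPM, had 542 and 672 reads and a like ratio of 0.26 (0.10 to 0.43). ZNF143, which binds the promoters of small nuclear RNA genes and many coding genes, had 553 and 507 reads, with a log2 ratio of -0.17 whose interval just reached 0 (-0.35 to 0.002). Its close relative ZNF76, named here for that relation, had 617 and 508 reads and a ratio of -0.33 (-0.50 to -0.16). Both lay on the same side of 0. ZNF148, a factor of GC-rich promoters, had 3667 and 3675 reads, with a ratio of -0.05 (-0.11 to 0.02).

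Members that sit in the same cluster of the genome were looked at together, taking the order of genes from RefSeq (GRCh38.p14), with no coordinates given because the counts were made on hg19. The run richest in members holds 20 zinc finger genes in a row, of which 18 are members, from ZNF283 to ZNF180. Of these, 15 were compared, 11 with ratios below 0 and 4 above, and the median log2 ratio was -0.13. Levels differed more between neighbours than between libraries. ZNF226 stood at 18.4 TPM in the adherent and 18.5 TPM in the floating library, while ZNF285 stood at 1.83 and 1.41 TPM. ZNF227, next to ZNF226, was at 14.3 and 11.6 TPM, whereas ZNF233 had 1 read in each library and ZNF229 had 3 and 5. ZNF224, a KRAB repressor, was at 17.4 and 13.3 TPM (499 and 407 reads), with the lowest ratio of the run, -0.34 (-0.54 to -0.15). ZNF155 had the highest, 0.53 (0.22 to 0.84), with 146 and 218 reads. Neighbours therefore did not share a direction throughout. Intervals lay below 0 for ZNF224, ZNF227 and ZNF180 and above 0 for ZNF155.

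ZNF222 and ZNF223, the near copies whose fingers are printed above, are adjacent members of this run. ZNF222 had 114 and 123 reads, or 6.28 and 6.36 TPM, and ZNF223 had 0 in both libraries. Of the coding sequence of ZNF223, 8.55% lay in stretches of 31 bases that other genes of the table also hold, so most of it is distinct at that length. A read that fits both copies could have been given to either by the estimation, and this was not tested.

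**Figure D4:**
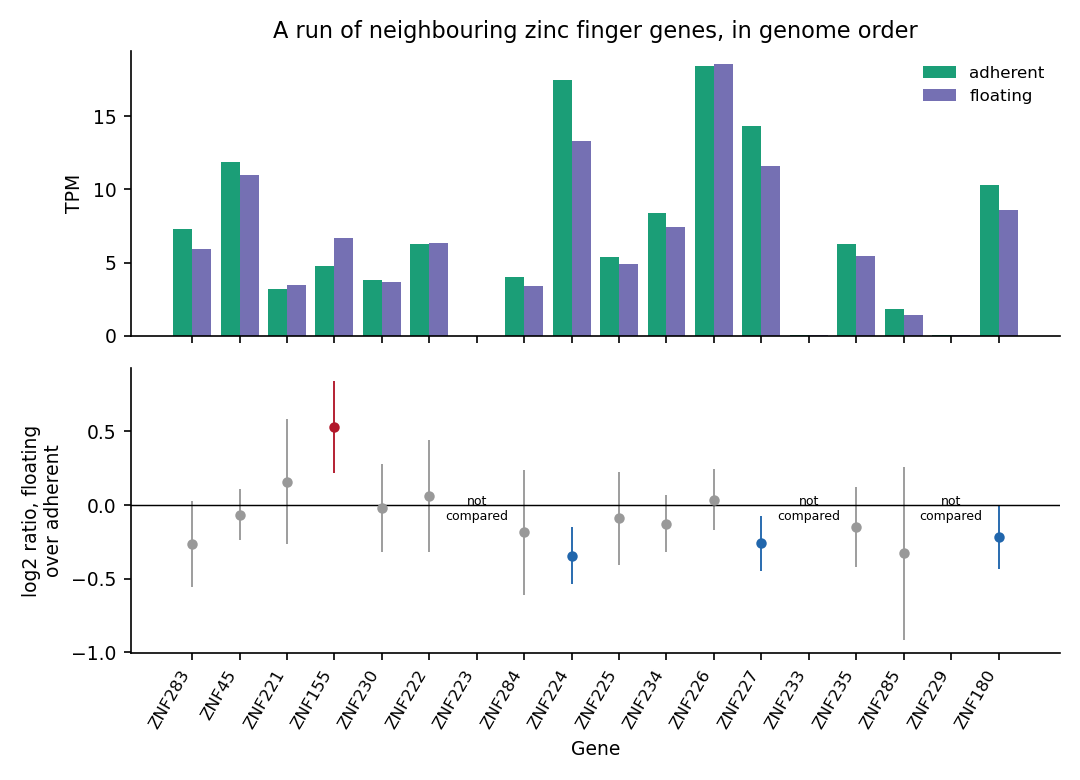
The 18 members of the run from ZNF283 to ZNF180 in genome order, with the level in TPM in each library (upper panel, bars from 0) and the log2 ratio of floating over adherent with its 95% counting interval (lower panel; 3 members were not compared). Levels range from 0 to 18.5 TPM between neighbours, and ratios from -0.34 (ZNF224) to 0.53 (ZNF155).

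Other runs were smaller in members. The run from ZNF85 to ZNF91 holds 27 zinc finger genes and 8 members, of which 4 had 0 reads and 3 were compared: ZNF91, ZNF43 (428 and 389 reads, ratio -0.19) and ZNF100 (366 and 346 reads, ratio -0.13). Transcribed and undetected genes thus stood in 1 run. ZNF91 and ZNF208, which lies in the same run without a read, were 82.4% identical over their coding sequences. In the runs around ZNF248 and ZNF26, all 5 members of each were compared, and 4 of 5 had ratios below 0 in both. In all, 60 compared members lay in runs of at least 5 zinc finger genes, with a median of -0.03 and 9 intervals above 0 and 10 below. The 66 in shorter runs had a median of -0.06, with 6 above and 17 below.

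Shared sequence was a limit for some members. In 37 of them at least 10% of the coding sequence lay in 31-base stretches held by another gene of the table. In ZNF20 this was 100% and in ZNF177 97.9%, and in the pair ZNF286A and ZNF286B it was 63.5% and 68.1%. Their reads are uncertain for that reason. ZNF286A had 1019 and 1090 reads and ZNF286B 119 and 113, and neither interval excluded 0. ZNF33A and ZNF33B, 96.3% identical, had 1451 and 1386 reads and 1223 and 1245 reads, with ratios of -0.12 (-0.22 to -0.01) and -0.02. The 28 compared members with at least 10% shared had a median of -0.03 with 2 intervals on each side, and the 99 with less shared had -0.05 with 13 above and 25 below.

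Promoters were searched for letters known as core sites of common promoter factors, on both strands, in RefSeq windows from 250 bases before to 50 after the start (GRCh38.p14). A window was found for 125 members, 112 of them compared, and for 15843 coding genes in all. The coding genes were taken whether or not they reached 1 CPM here, so the 2 sets are unlike in expression. The motif CCGGAAG, the core of sites for ETS factors such as GABPA, was in 55 of the 125 windows (44%), against 14.2% of all coding windows. Among compared genes alone, it was in 50 of 112 member windows, and in non-members 1782 windows held it and 7509 did not. CCAAT, the site of NF-Y, was in 52.8% against 36.4%, and ACTACAA, the start of the site of ZNF143, in 9.6% against 3.14%. TATAAA, the TATA box, was in 2.4% against 9.63%. GGGCGG, the site of SP1, did not stand out, at 58.4% against 58.5%, nor did ATGGCG, that of YY1, at 15.2% against 14.3%. TGACGTC, part of the CREB site, was in 8% against 4.58%, and GCGCATG, part of the NRF1 site, in 10.4% against 5.87%. The motifs searched were separate letters, with no allowance for overlap between them. A match is a description of letters and not of binding.

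The upstream 250 bases of ZNF134 and ZNF154, members of the same run of 23 zinc finger genes, are printed to show a window with the motif and one without, from a detected and an undetected member; the motif is in capitals and reads CTTCCGG on this strand.
ZNF134: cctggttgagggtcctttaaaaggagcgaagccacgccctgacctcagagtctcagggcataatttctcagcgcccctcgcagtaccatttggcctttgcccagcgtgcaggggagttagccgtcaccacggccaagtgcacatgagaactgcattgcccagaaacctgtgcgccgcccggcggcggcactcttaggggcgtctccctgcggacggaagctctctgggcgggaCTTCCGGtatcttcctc
ZNF154: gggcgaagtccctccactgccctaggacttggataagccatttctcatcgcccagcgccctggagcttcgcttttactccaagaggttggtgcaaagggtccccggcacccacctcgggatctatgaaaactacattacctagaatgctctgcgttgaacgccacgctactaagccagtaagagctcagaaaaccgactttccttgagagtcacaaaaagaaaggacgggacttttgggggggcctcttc
The first is chr19:57613992-57614241 on the plus strand with 17 CpG sites, the second chr19:57709205-57709454 on the minus strand with 11, both in GRCh38.p14. ZNF134 had 472 reads in the adherent and 546 in the floating library, with a ratio of 0.16 (-0.02 to 0.34), and ZNF154 had 0 in both. The motif did not set the members that were not compared apart as a whole: it was in 5 of their 13 windows and in 50 of 112 of those compared. Some of the members behind these 13 windows had a few reads, such as ZNF214 with 15 and 10. CpG sites had a lower median in the 13 windows, 14 per window against 21 in the 112, but the ranges overlapped (8 to 32 and 2 to 55).

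Members with the motif and members without it differed somewhat in their ratios. The 50 compared members with CCGGAAG had a median log2 ratio of 0.001, with 25 ratios below 0 and 25 above, 4 intervals below 0 and 6 above. The 62 without it had a median of -0.09, with 43 ratios below 0 and 19 above, 20 intervals below 0 and 6 above. ZNF10, ZNF41, ZNF185 and ZNF217, all lower in floating cells, had no match, and ZNF274, ZNF195 and ZNF197, all higher, had one; ZNF259 and ZNF146, also higher, had none, and ZNF3, ZNF12, ZNF180 and ZNF184, the 4 with a match and an interval below 0, were lower. Against like genes the medians were 0.03 with and -0.06 without. Non-members went the same way. Of 1782 with the motif 32.1% had intervals above 0 and 18.01% below, with a median of 0.03, and of 7509 without it 25.5% were above and 27.7% below, with a median of -0.01. Levels also differed between the groups, with medians of 9.64 (adherent) and 9.39 TPM (floating) in members with the motif and 13.6 and 11.6 TPM in those without, and the part of level in the difference was not tested.

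**Figure D5:**
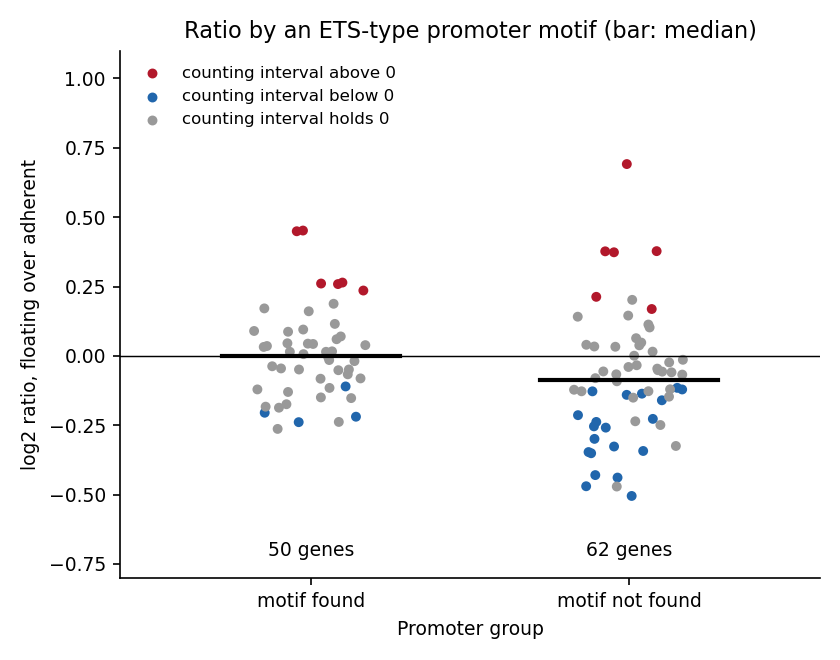
Log2 ratio of floating over adherent of the compared members by whether CCGGAAG occurs in the promoter window, 1 point per gene spread sideways at random, with the median as a bar. The 50 genes with the motif centre on 0.001 and reach down to -0.26, and the 62 without it centre on -0.09 and reach down to -0.50.

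The partners that KRAB proteins use were expressed in both growth forms. TRIM28, the co-repressor that binds the KRAB box, stood at 329 TPM in the adherent and 285 TPM in the floating library, a log2 ratio of -0.17 (-0.20 to -0.13). SETDB1, the methyltransferase it recruits, was at 33.9 and 28.7 TPM, with a ratio of -0.25 (-0.36 to -0.15). Of the HP1 genes, CBX1 had a ratio of 0.03 (-0.03 to 0.10), CBX3 of -0.03 (-0.07 to 0.01) and CBX5 of 0.07 (0.04 to 0.11). CBX1 was at -0.01 on the deposited TPM, and CBX5 at 0.03 on the TPM and at 0.16 (0.13 to 0.20) with the trend over length removed. On the TPM all compared genes had a median log2 ratio of -0.05. TRIM28 and SETDB1 were slightly lower in floating cells. Of 33 co-repressor and heterochromatin genes listed and compared, 0 were called, 14 intervals lay below 0 and 4 above, and the median was -0.05. The share below 0, 42.4%, was above the 25.6% of all compared genes, in a list of much deeper counts than the genes at large.

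Zinc finger genes outside the number range also had medians below 0. Symbols from ZNF300 up numbered 356, of which 282 were compared and 0 were called. Of their intervals 70 lay below 0 (24.8%) and 23 above (8.16%), and the median log2 ratio was -0.07. The families named ZFP, ZSCAN, ZKSCAN and ZBTB gave 76 compared genes with 0 called, 20 intervals below 0 (26.3%) and 8 above (10.5%), and a median of -0.09. Among all compared genes 2.03% were called, 25.6% of intervals lay below 0 and 25.5% above. In both sets the share below 0 was thus near that of all genes, and the share above 0 was smaller. Against genes of like expression and length the median differences were -0.06 (168 genes below their bin, 114 above) and -0.06 (47 below, 29 above), against -0.01 (67 below, 61 above) for ZNF2 to ZNF299. The 3 sets were not tested against each other.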

How the data were processed

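Poly(A) RNA of adherent and of floating A427 cells was sequenced, 1 library each. The authors deposited estimated counts per gene without normalization, and, in a separate table, TPM, which they had scaled before depositing it; FastQC 0.11.1, STAR 2.5.3a, RSEM 1.3.3 and build hg19 are named in the submitters' processing notes. The annotation, the run settings and any counting by strand were not given in the sources used here. Decimals occur in 6.38% of adherent and 6.55% of floating estimates, and counts were rounded to whole numbers. Libraries were scaled by TMM in edgeR 4.0.16 (R 4.3.3). The log2 ratio was taken on (count + 0.5), and its interval is the exact Clopper-Pearson one given the gene's summed reads. Reads carry no molecular identifiers, so intervals and limits for 0 reads cover counting error only. With 1 library per group no test in edgeR or DESeq2 was run.

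Fingers were matched as C, 2 to 4 residues, C, 12 residues, H, 3 to 5 residues, H, and KRAB and SCAN by short patterns, in GENCODE v29 coding sequences in place of the RefSeq proteins first planned. Promoters and gene order came from RefSeq (GRCh38.p14), matched by symbol or older symbol.

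The members and lists were chosen with earlier results of these data known. The rule for named genes took members called 2-fold, the 10 of highest mean TPM, the 5 highest and 5 lowest by the bound closer to 0 among those of at least 10 CPM, members of known role, TRIM28, SETDB1, CBX1, CBX3, CBX5, and members with 0 reads in either library. Others were named for a feature or after their values were seen. The calculation was tested on simulated libraries. Alternatives were other scalings (DESeq2 1.42.0 size factors, library totals, upper quartile), log2 of the deposited TPM + 0.1, a prior count of 5, no filter or 5 CPM, whole-number estimates, removal of length or GC trends, other thresholds, other bins and the mean. Calculations outside R used Python 3.11.15, numpy 2.4.6, scipy 1.17.1, pandas 2.3.3 and Biopython 1.88.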

Additional observations from a re-analysis of the deposited data

How the results depend on the processing

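No paired analysis was possible because each growth form has 1 library, and for the same reason leaving out a replicate was not possible. No member was called 2-fold in the main setting, so there was no call whose sign could be followed. Ratios were followed over the settings for the 25 genes named by the rule that had one, and not for genes named otherwise. Among those 25, no ratio whose interval excluded 0, at any fold, changed sign. Among the other values, the difference from like genes changed sign with the mean over members (0.007), and ZNF24 and CBX1 did on the deposited TPM (-0.01 each). With a 1.5-fold threshold 2 members were called higher (ZNF165 and ZNF296) and 1 lower (ZNF251), and with no filter 1 was called lower, ZNF157 with 19 and 7 reads, named after its values were seen; the other settings called 0 in both directions. The median log2 ratio ranged from -0.09 on the deposited TPM, where all compared genes also had a lower median, to -0.02 with the length trend removed. The difference from like genes ranged from -0.05 (20 expression bins, no length bins) to 0.007. Both ranges were judged against the median half-width of the members' intervals, 0.20, which is wider than the medians themselves, so staying inside it says little about their stability. Intervals above 0 numbered 13 to 18 and below 0 23 to 29. Of 249 pairs of a named gene and a setting, 245 stayed within the counting interval, and ZNF217 (-0.39), TRIM28 (-0.21) and CBX5 (0.03) on the TPM and CBX5 (0.16) with the length trend removed did not. On the TPM the median log2 ratio of all compared genes was -0.05, against -0.005 in the main setting. That offset was not removed from the TPM ratios, those of ZNF24 and CBX1 included. Counting error limits the members under 10 CPM, and the spread between cultures was not measured.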

Other observations

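Reads and TPM of a gene should keep one ratio in both libraries unless its estimated transcript mix differs. Among 102 members of at least 5 TPM in both libraries, ZNF248, a KRAB gene, was the 1 member in which that ratio differed by more than 0.1 (log2) from the general shift, by 0.32. It went from 700 reads and 16.1 TPM in the adherent library to 614 reads and 10.6 TPM in the floating library, so the log2 ratio was -0.24 (-0.40 to -0.08) on scaled counts and -0.60 on TPM. Of 10749 genes of that level, 0.633% passed the same limit. The tables hold no values per transcript, so which transcripts differ was not analysed here. ZNF248 was named after its values were seen.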
